A study of Homo sapiens with 10 samples.

Results

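IGHM, JCHAIN and PAX5 are genes of the B cell lineage whose RNA was counted in NK-92, a long-established line of human natural killer (NK) cells derived from a lymphoma. The 3 genes, of 54628 in the count table, were chosen by their change at 24 h or their level in these libraries and found by symbol, so the 24 h changes against untreated cells and the levels below are a description and carry no test. All 3 were found, and all 3 passed the filter on low counts that left 20125 genes for testing. The 10 libraries of polyadenylated RNA form 5 groups of 2: untreated cells at 0 h, 2 groups kept for 6 h or 24 h in 500 µM deferoxamine (DFO, an iron chelator), and 2 groups kept equally long in 10 µg/mL PPMX-T003 (T003), which is an antibody to the transferrin receptor by which iron enters cells. All 5 were the same line in medium with human serum. No untreated group of 6 h or 24 h was analysed here, so time in culture and treatment cannot be told apart. The labels do not say whether libraries of a group are from different cultures; the p-values thus rest on a spread that may be technical. In bulk RNA, fewer cells with a transcript and less of it per cell cannot be told apart.

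IGHM encodes the constant region of the mu heavy chain, the chain of IgM. In a B cell it is joined by splicing to a rearranged variable exon, while transcripts that start next to the mu switch region can be made from a heavy chain locus that was never rearranged. JCHAIN encodes the joining chain, a small secreted protein that links IgM into pentamers and IgA into dimers and lets the polymeric immunoglobulin receptor carry them across epithelia. PAX5 is the transcription factor that commits lymphoid progenitors to the B lineage; it activates genes of the B cell receptor, represses genes of other lineages and, in mature B cells, JCHAIN, and is itself shut off when B cells become plasma cells.

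The place where the products of IGHM and JCHAIN meet is the tail of the secreted mu chain, which the membrane form lacks, and the coding end of that form is shown because the deposited counts, made per gene, do not separate the forms. It is the coding end of the fourth exon of the secreted transcript beyond the splice site used for the membrane form (GENCODE v44, hg38, chr14:105854343-105854404, minus strand, within the IGHM gene at chr14:105851966-105856217), with the stop codon in capitals.
IGHM secreted tail: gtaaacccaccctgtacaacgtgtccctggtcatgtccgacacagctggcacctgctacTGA

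The promoters of JCHAIN (gene at chr4:70655541-70666508, minus strand) and PAX5 (gene at chr9:36833269-37034268, minus strand) are shown because the levels of these 2 genes moved differently. Each is the 250 bases before the RefSeq start (GRCh38.p14, chr4:70666509-70666758 and chr9:37034269-37034518, minus strand). Capitals mark 4 motifs searched on both strands: the octamer core ATGCAAA, a site of POU factors in immunoglobulin promoters; the E box CANNTG, a site of E proteins; TATAAA; and ACGTG, the core of hypoxia elements.
JCHAIN promoter: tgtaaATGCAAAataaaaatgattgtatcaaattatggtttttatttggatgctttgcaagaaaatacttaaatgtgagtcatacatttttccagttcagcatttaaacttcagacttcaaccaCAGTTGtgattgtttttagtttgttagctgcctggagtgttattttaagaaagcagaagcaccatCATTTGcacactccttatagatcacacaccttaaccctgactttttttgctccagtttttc
PAX5 promoter: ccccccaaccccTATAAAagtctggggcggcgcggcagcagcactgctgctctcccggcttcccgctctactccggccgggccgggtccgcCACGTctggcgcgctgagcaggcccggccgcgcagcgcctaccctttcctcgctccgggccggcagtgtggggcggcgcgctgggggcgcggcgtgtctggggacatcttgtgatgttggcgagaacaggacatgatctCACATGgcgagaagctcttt
The JCHAIN window held 1 octamer core, at -245 from the gene's start, and 2 E boxes, at -126 and -61, each position being that of the leftmost base as printed. The PAX5 window held TATAAA at -238, ACGTG on the other strand at -159 and an E box at -20. Of 35114 RefSeq promoter windows of the same length, 3.94% held the octamer core, 61.8% an E box, 10.7% TATAAA and 18.5% ACGTG. The JCHAIN window was 32.8% G or C with 0 CpG dinucleotides, and the PAX5 window 69.6% with 27, against medians of 58.0% and 11 over all windows. The matches describe these letters only. GENCODE v44 lists 18 transcripts for PAX5 and 5 for JCHAIN, and counts per gene do not show which start was used.

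Library totals ran from 107117892 to 143575614 estimated counts. Levels are given as CPM, the count scaled to library size with TMM factors, as a mean ± SD over 2 libraries. The libraries had NK genes and lacked the defining genes of B cells. Of 17 NK markers 15 had a mean of at least 1 CPM. The summed level of the 17 was 3788 to 3854 CPM in untreated cells and 3649 to 3797 at 6 h. At 24 h it was higher, at 3965 to 4004 with DFO and 4213 to 4249 with T003. The members moved both ways, and the sum weighs the highest genes most. IL2RB, the highest, went from a mean of 1033 CPM in untreated cells to 1185 with DFO and 1305 with T003. KLRD1 went from 49.9 to 40.0 and 42.5 CPM, and EOMES from 172 to 151 and 159. Of 13 B cell markers none reached a mean of 1 CPM, 8 had 0 counts in all 10 libraries (MS4A1, CD79B, CD22, BLK and IGKC among them), and the summed level was 0.349 to 0.859 CPM per library, with 0.717 to 0.859 in untreated cells and 0.349 to 0.823 at 24 h. A count of 0 allows up to 3 counts, which is 0.0209 to 0.0280 CPM and covers counting error only. IGHM, at 40.2 CPM or more in every library, thus stood far above the whole B cell list. Of 10 plasma cell markers 5 were above 1 CPM (MZB1, DERL3, PRDM1, XBP1 and IRF4, of which several are also used by activated lymphocytes), while TNFRSF17, IGKC and IGHG1 had 0 counts throughout. Their summed level was 288 to 305 CPM in untreated cells, 287 to 300 at 6 h and 324 to 339 at 24 h. Of 10 T cell markers 3 had a mean of at least 1 CPM (CD28, TRAC and TRBC1), while CD3G and CD8B had 0 counts throughout. The summed T cell markers were at 126 to 137 CPM at 0 h and 6 h and 155 to 179 at 24 h. CD28 alone had a mean of 97.2 CPM in untreated cells and 120 with DFO and 134 with T003 at 24 h. Summed monocyte and erythroid markers stayed at 0.523 CPM or less. The part of these shifts in the results below was not tested.

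IGHM stood at 47.3 and 44.1 CPM in the untreated libraries. After 6 h it was at 42.0 and 42.2 CPM with DFO and at 40.2 and 42.0 with T003. After 24 h it was at 80.8 and 84.4 CPM with DFO and at 87.8 and 86.0 with T003. All 4 libraries at 24 h lay far above the 6 others, and all 4 at 6 h lay a little below both untreated ones. The log2 difference from untreated cells at 24 h was 0.85 with DFO (1.81-fold) and 0.93 with T003 (1.90-fold), and from 6 h to 24 h it was 0.97 and 1.08. Of all genes tested, 24.2% with DFO and 25.9% with T003 had both 24 h libraries above both untreated ones, and 24.8% and 26.4% had them above both 6 h ones.

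JCHAIN stayed near 13 CPM. It was at 13.2 and 13.6 CPM in untreated cells, at 12.8 and 12.05 with DFO for 6 h and at 12.7 and 12.5 with T003 for 6 h. At 24 h it was at 13.6 and 14.01 CPM with DFO and at 13.0 and 11.2 with T003. The untreated and DFO 24 h libraries overlapped, and the highest and the lowest values of all 10 were both from 24 h, one with each agent. The log2 difference from untreated cells at 24 h was 0.04 with DFO and -0.14 with T003. The T003 value rested on replicate 2, which was the lowest of the 10, and was -0.037 without it and -0.26 without replicate 1.

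PAX5 was low throughout and lowest at 24 h. Untreated libraries held 83 and 178 counts. The 6 h libraries held 209 and 194 with DFO and 204 and 187 with T003, and those of 24 h 17 and 26 with DFO and 36 and 28 with T003. In CPM this was 0.577 and 1.39 in untreated cells, 1.94 and 1.46 with DFO and 1.73 and 1.41 with T003 at 6 h, and 0.138 and 0.192 with DFO and 0.296 and 0.224 with T003 at 24 h. The untreated libraries differed from each other more than those of any other group, yet all 4 libraries at 6 h lay above both, the lowest of them narrowly, and all 4 at 24 h below both. Of all genes, 25.1% with DFO and 26.9% with T003 had both 24 h libraries below both untreated ones, and 25.1% and 26.5% below both 6 h ones. The log2 difference from untreated cells at 24 h was -2.56 with DFO (5.88-fold lower) and -1.91 with T003 (3.76-fold lower). It was -3.06 and -2.42 without untreated replicate 1, and -1.79 and -1.15 without untreated replicate 2. From 6 h to 24 h, where no untreated library enters, it was -3.35 with DFO and -2.59 with T003. Reads of PAX5 cannot be told apart by strand from 4 short genes inside its span, MIR4540, MIR4476, LOC105376031 and LOC105376032. Each of these 4 had 0 counts of its own in all 10 libraries.

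**Figure D1:**
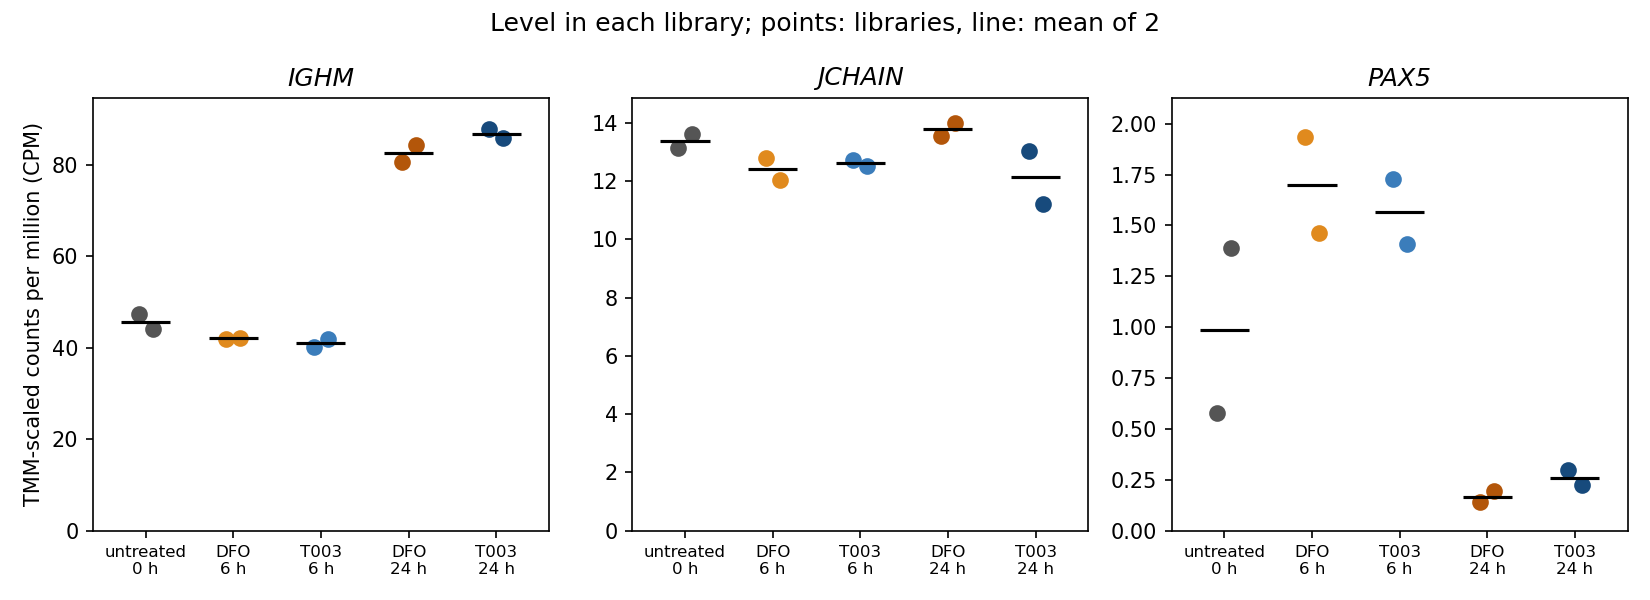
TMM-scaled CPM (vertical axes, from 0) of IGHM, JCHAIN and PAX5 in the 5 groups; each point is a library and each line the mean of 2. IGHM is at 80.8 CPM or more in the 24 h libraries and at 47.3 or less in the others, JCHAIN lies between 11.2 and 14.01, and PAX5 is at 0.296 or less at 24 h.

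Divided by the length of the annotated exons (1871 bases for IGHM, 1546 for JCHAIN and 9570 for PAX5, from GENCODE v44), untreated levels were 24.4 ± 1.23 CPM per kb (SD, n = 2) for IGHM, 8.66 ± 0.207 for JCHAIN and 0.103 ± 0.0601 for PAX5. IGHM was thus above 87.6% of the 16933 tested genes with a length, JCHAIN above 69.9% and PAX5 above 15.3%. At 24 h IGHM reached 44.1 ± 1.38 CPM per kb with DFO and 46.5 ± 0.674 with T003, above 93.8% and 94% of genes. PAX5 then lay above 4.39% with DFO and 6.79% with T003. For IGHM the groups ran in the order T003 24 h, DFO 24 h, untreated, DFO 6 h, T003 6 h, with the libraries of the last pair overlapping. For PAX5 they ran DFO 6 h, T003 6 h, untreated, T003 24 h, DFO 24 h, with the first pair overlapping. For JCHAIN they ran DFO 24 h, untreated, T003 6 h, DFO 6 h, T003 24 h, and of the neighbours in that order untreated cells and T003 6 h did not overlap, while the other 3 pairs did.

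The changes at 6 h, whose libraries do not enter the 24 h contrast, were tested with edgeR over all 20125 genes. They share the untreated libraries with it. None of the 3 genes was called at an adjusted p under 0.05, where 0.0248% of all genes were called with DFO and 0.0298% with T003. DESeq2 did not call IGHM with either agent or JCHAIN with T003. It gave no adjusted p for PAX5 with either agent or for JCHAIN with DFO. At an unadjusted p under 0.05 edgeR gave 2 of the 3 with DFO and 1 with T003, where 12.4% and 7.53% of all genes passed. IGHM had a log2 difference of -0.12 (SE 0.041, edgeR adjusted p = 0.275) with DFO and -0.15 (SE 0.041, edgeR adjusted p = 0.441) with T003. PAX5 had 0.79 (SE 0.34, edgeR adjusted p = 0.38) with DFO and 0.68 (SE 0.34, edgeR adjusted p = 0.695) with T003. JCHAIN had -0.11 (SE 0.079, edgeR adjusted p = 0.638) and -0.08 (SE 0.079, edgeR adjusted p = 0.868). The sizes rested on the 2 untreated libraries. Without untreated replicate 1 PAX5 had 0.29 with DFO and 0.18 with T003, and without replicate 2 it had 1.55 and 1.44. IGHM had -0.065 and -0.097 without replicate 1, and -0.17 and -0.20 without replicate 2. JCHAIN with DFO was at -0.069 without DFO 6 h replicate 2. Both libraries of each 6 h group lay below both untreated ones for IGHM and JCHAIN, as for 22% of all genes with DFO and 19.8% with T003, and above them for PAX5, as for 21% and 19.5%.

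The agents were compared with each other at a matched time over the same genes. The 24 h libraries also entered the choice of the 3 genes. The 24 h intervals and p-values between agents are thus not independent of that choice and serve as a description. None of the 3 genes was called by edgeR at 6 h, where 0% of all genes were called, or at 24 h, where 1.34% were. DESeq2 called none of them either, but gave no adjusted p for PAX5 at 24 h. At an unadjusted p under 0.05 edgeR gave 0 of the 3 at 6 h and 1, JCHAIN, at 24 h, beside 6.63% and 13.9% of all genes. For IGHM the log2 difference, DFO minus T003, was 0.03 at 6 h (95% interval -0.06 to 0.12) and -0.07 at 24 h (-0.16 to 0.01; SE 0.040, edgeR adjusted p = 0.466). For JCHAIN it was -0.02 at 6 h (-0.20 to 0.15) and 0.18 at 24 h (0.01 to 0.36; SE 0.079, edgeR adjusted p = 0.327), with both DFO libraries above both T003 ones, as for 21.4% of all genes. For PAX5 it was 0.11 at 6 h (-0.62 to 0.85) and -0.65 at 24 h (-1.63 to 0.33; SE 0.45, edgeR adjusted p = 0.599), with both DFO libraries the lower, as for 22.5% of all genes and for IGHM too. At 24 h the interval for PAX5 holds no difference as well as a 2-fold lower level with DFO. Without T003 24 h replicate 2 the JCHAIN difference was 0.08, and without replicate 1 it was 0.30.

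Within the heavy chain locus the level of IGHM stood apart from the variable segments. All 9 IGHJ segments together had 8 to 21 counts per library and the 28 D segments 0 to 4. Of 148 IGHV segments, copies outside the locus included, 124 had 0 counts in all libraries, and their sum was 29 to 121 counts per library, against 4531 to 11408 counts for IGHM. Of 190 kappa and lambda light chain segments 172 were at 0, with 22 to 68 counts per library in all. The heavy chain segments are shorter than the exons of IGHM (1871 bases), and these counts were not divided by length. The variable part of a rearranged transcript differs from the reference, and reads across it may not have been counted.

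Genes on both sides of IGHM, whose own change was not tested, were called higher at 24 h. IGHG3, the constant gene of IgG3, 80.6 kb from IGHM, was at 1.56 and 1.48 CPM in untreated cells. At 6 h it was at 1.48 and 1.25 with DFO and 1.19 and 1.13 with T003, and at 24 h at 2.62 and 2.37 with DFO and 2.33 and 2.68 with T003, above every other library. It rose by 0.72 (log2, SE 0.14, edgeR adjusted p = 0.0133) with DFO and by 0.72 (SE 0.14, edgeR adjusted p = 0.00725) with T003. IGHD, the delta constant gene 6.3 kb from IGHM, was at 0.408 to 0.777 CPM in all libraries, with log2 differences of 0.35 and -0.10 at 24 h (edgeR adjusted p = 0.595 and 0.906). Between IGHM and the J segments, where the mu switch region lies, are the microRNA loci MIR4539, MIR4507, MIR4538 and MIR4537, 1.3 to 3.3 kb from IGHM. They are below the 1 CPM set for naming and were singled out after their values were seen. MIR4537 went from 65 and 63 counts in untreated cells to 94 and 137 with DFO and 148 and 120 with T003 at 24 h, with 44 to 57 at 6 h. It rose by 0.91 (SE 0.24, edgeR adjusted p = 0.0441) with DFO and by 1.21 (SE 0.24, edgeR adjusted p = 0.00684) with T003, and MIR4538 by 1.04 (SE 0.30, edgeR adjusted p = 0.0463) with T003. MIR4539 had 0.64 and 0.75 (edgeR adjusted p = 0.146 and 0.0611) and MIR4507 1.22 and 0.97 (0.297 and 0.367). These counts are reads of longer RNA over the loci, not mature microRNAs, and the loci lie in repeats whose reads may be shared.

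FAM30A, a long noncoding RNA gene among the D segments 61.8 kb from IGHM, rose by 1.01 (SE 0.25, edgeR adjusted p = 0.0343) with DFO and had 0.66 with T003 (edgeR adjusted p = 0.121). RPS8P1, a pseudogene on the same side, had -0.02 and -0.08 (edgeR adjusted p = 0.949 and 0.694). Several of these calls depended on single libraries. IGHG3 with DFO was no longer called without untreated replicate 1 or 2 or DFO 24 h replicate 1 (adjusted p = 0.0549, 0.117 and 0.0848, edgeR), and with T003 without untreated replicate 2 or T003 24 h replicate 2 (0.0683 and 0.0649). MIR4537 with DFO was lost without any single library (0.0503 to 0.28) and when replicate number was a block (0.0629). With T003 it was lost without untreated replicate 1 or T003 24 h replicate 1 (0.0531 and 0.0655). MIR4538 was lost without 7 of the 10 libraries (0.0567 to 0.287) and with the block (0.0648), and FAM30A without any untreated or 24 h library (0.0521 to 0.208).

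**Figure D2:**
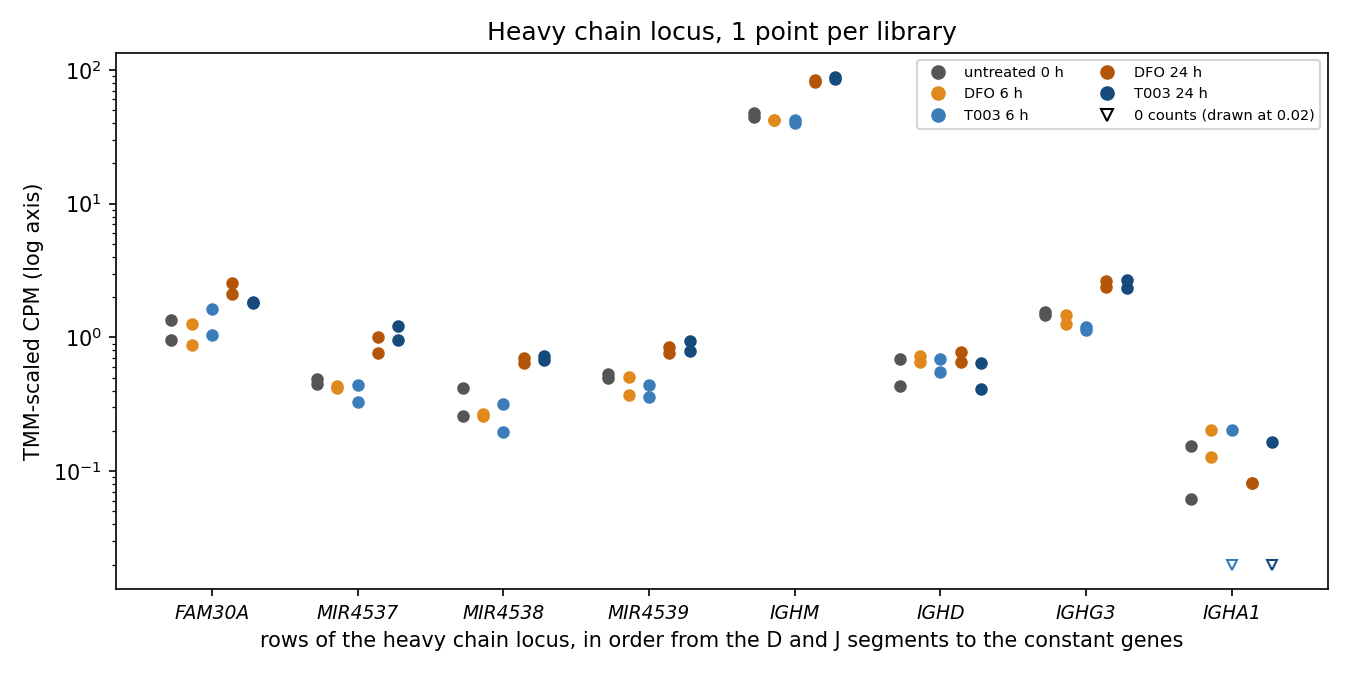
TMM-scaled CPM (log axis) of 8 genes of the heavy chain locus, from the D segments to the constant genes, with 1 point per library; an open triangle is a library with 0 counts, drawn at 0.02. IGHM, at 40.2 to 87.8 CPM, is the highest, and IGHG3 and the microRNA loci have their 24 h libraries above the others, whereas IGHD overlaps across groups.

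Neighbours of JCHAIN and PAX5 at 1 CPM or more had log2 differences between -0.14 and 0.18 at 24 h. Within 250 kb of JCHAIN, of 13 genes in the table, UTP3, RUFY3, GRSF1 and MOB1B were above 1 CPM. With DFO at 24 h GRSF1, an RNA-binding protein of mitochondria, rose by 0.11 (SE 0.024, edgeR adjusted p = 0.0191), and with T003 UTP3 rose by 0.15 (edgeR adjusted p = 0.0136). GRSF1 was lost without untreated replicate 1 or 2 or DFO 24 h replicate 1 or 2 (adjusted p = 0.0739, 0.128, 0.0522 and 0.134, edgeR), and UTP3 without untreated replicate 1 or T003 24 h replicate 2 (0.124 and 0.104). Within 250 kb of PAX5, of 12 genes, MELK, EBLN3P, ZCCHC7 and LOC105376033 were above 1 CPM. ZCCHC7, the next coding gene, had log2 differences of 0.15 with DFO (edgeR adjusted p = 0.0846) and 0.18 with T003 (0.0255), against -2.56 and -1.91 for PAX5. MELK, a kinase gene of dividing cells, had -0.10 and -0.14 (0.192 and 0.0355), and EBLN3P 0.15 and 0.10 (0.0199 with DFO). These calls ended without single libraries as well. ZCCHC7 was lost without any untreated or T003 24 h library (edgeR adjusted p up to 0.135) and EBLN3P without replicate 2 of untreated or DFO 24 h (up to 0.151). MELK was lost without any untreated, T003 6 h or DFO 24 h library or T003 24 h replicate 1 (up to 0.22). RUFY3, MOB1B and LOC105376033 were not called with either agent.

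Over the 10 libraries the log2 levels of IGHM and PAX5 had a Pearson r of -0.95, those of IGHM and JCHAIN 0.08 and those of JCHAIN and PAX5 -0.16. The libraries fall into 4 from 24 h and 6 others, and points of a pair share a library and its depth, so r over all 10 holds the difference between these sets. Within the 6 libraries of 0 h and 6 h the values were -0.90, 0.53 and -0.32. These 6 still hold the difference between untreated cells and 6 h. Of them untreated replicate 1 had both the highest IGHM (47.3 CPM) and the lowest PAX5 (0.577 CPM). How far -0.90 rests on this library was not tested. Among tested genes with a mean of at least 1 CPM, the 5 whose pattern was most like that of IGHM (Pearson r over 10 libraries, and over the 6 of 0 h and 6 h) were ID2 (0.995 and 0.911), ADARB1 (0.995 and 0.761), RIPOR2 (0.993 and 0.689), DGKD (0.992 and 0.862) and CHN2 (0.991 and 0.635). ID2 encodes an inhibitor that binds E proteins and is needed for NK cells to develop. For PAX5 they were PGAP1 (0.991 and 0.960), SKIL (0.989 and 0.958), CARD19 (0.985 and 0.911), LUCAT1 (0.985 and 0.930) and TMEM41B (0.983 and 0.930), and SKIL encodes a corepressor of SMAD proteins. The genes nearest to JCHAIN were less like it: TSFM (0.937 and 0.907), a mitochondrial translation factor, SNORD104 (0.887 and 0.767), BCR (0.871 and 0.650), SLC7A6OS (0.870 and 0.958) and HLA-DMB (0.864 and 0.916).

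**Figure D3:**
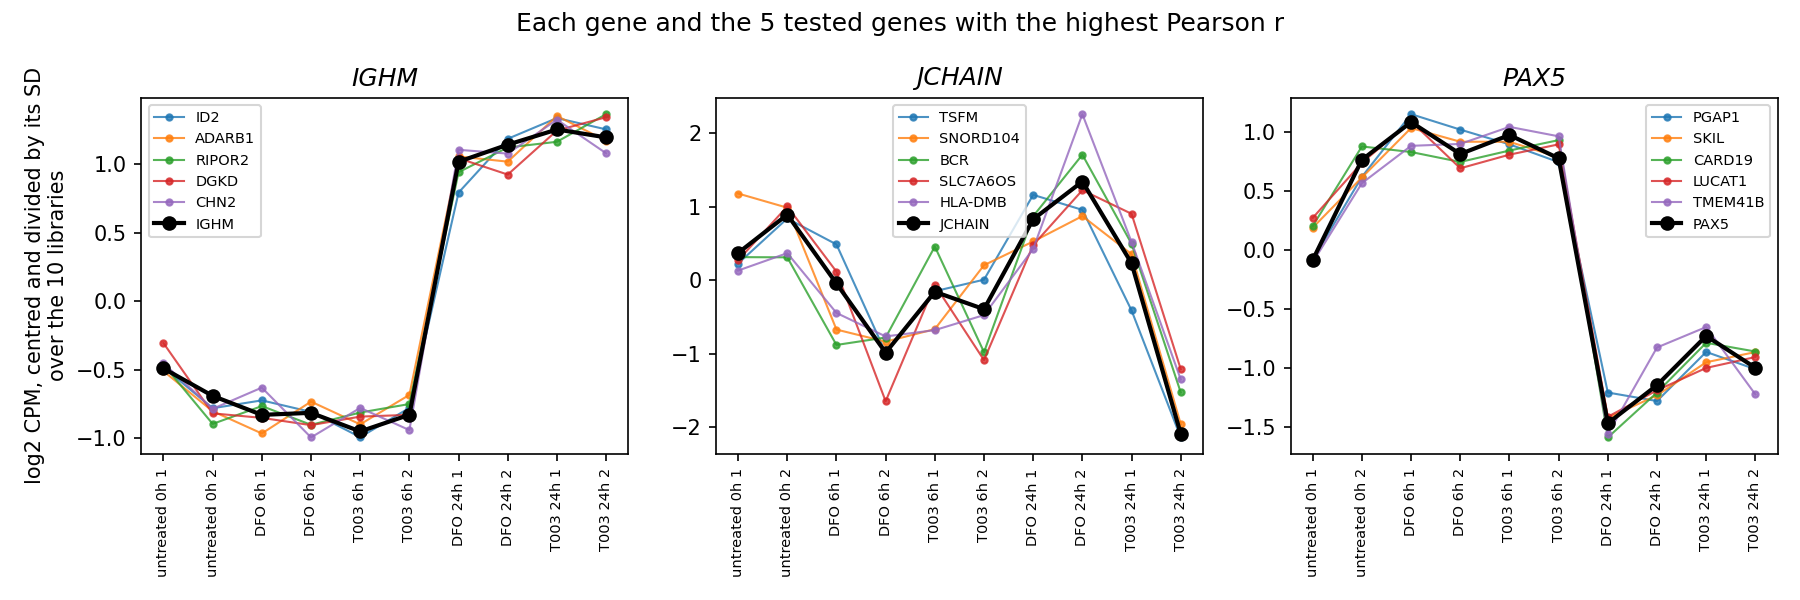
Log2 CPM of each gene (black) and of the 5 tested genes with the highest Pearson r (colours), centred and divided by the SD over the 10 libraries, which are ordered by group along the horizontal axis. The curves of IGHM step up and those of PAX5 step down between the 6 h and 24 h libraries, while JCHAIN has its lowest point in T003 24 h replicate 2.

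Genes that work with the 3 were counted in 7 lists with 109 genes in all, of which 29 had 0 counts in every library and 69 could be tested. With DFO at 24 h 14 of 69 were called higher and 5 lower by edgeR, beside 3.43% and 3.27% of all genes, and with T003 20 higher and 9 lower, beside 7.1% and 5.44%. The median log2 difference of the listed genes was 0.03 with DFO and 0.05 with T003, against -0.00229 and -0.00688 over all genes tested. At 6 h none was called by edgeR with either agent (8 and 9 of 69 at an unadjusted p under 0.05, beside 12.4% and 7.53% of all genes). DESeq2, which called 434 and 69 of all genes, called 1 of the lists, IKZF3, with DFO and 2, HSPA5 and HSP90B1, with T003. Between the agents at 24 h edgeR called 2 of 69 higher with DFO (HSPA5 and PLCG2) and 4 lower (TENT5C, ETS1, IRF4 and CD28), beside 1.34% of all genes. Each of these 6 calls was lost without at least 1 library, HSPA5 only without T003 24 h replicate 1 (log2 0.19, edgeR adjusted p = 0.00539, and 0.0668 without it), and the 4 lower ones without any single 24 h library (0.05 to 0.24). Between agents CD28 was lost without any of the 10 libraries, PLCG2 without 8 and IRF4 without 6. The lists were chosen with earlier results of these data known. They hold many genes active in NK cells, and their members overlap. The shares of all genes beside the counts are therefore no test of the lists.

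The list of immunoglobulin and surrogate light chains had 18 genes, of which 10 were at 0 throughout and 4 could be tested; only IGHG3, above, was called. Of 23 genes of the B cell receptor and its coreceptors 9 were at 0 and 9 tested. CD79A, which carries the receptor's signal, had 18 to 42 counts per library and log2 differences of -0.42 and -0.16 at 24 h (edgeR adjusted p = 0.706 and 0.891). Its partner CD79B was at 0. With DFO 2 rose and none fell, beside 3.43% and 3.27% of all genes, and with T003 2 rose and 2 fell, beside 7.1% and 5.44%. LYN, a SRC family kinase also active in NK cells, rose from 169 ± 4.02 to 198 ± 2.72 CPM with DFO (log2 0.23, SE 0.026, edgeR adjusted p = 0.000387) and to 196 ± 4.43 with T003 (0.21, SE 0.026, edgeR adjusted p = 0.000444). PIK3AP1, an adaptor of the B cell receptor, had 0.11 and 0.14 (edgeR adjusted p = 0.0177 and 0.00399), and its DFO call was lost without either untreated library or DFO 24 h replicate 1 (up to 0.104). The kinase gene SYK and the phospholipase gene PLCG2 fell with T003 by 0.28 (SE 0.061, edgeR adjusted p = 0.0131) and 0.17 (SE 0.032, edgeR adjusted p = 0.00597). SYK was not called without untreated replicate 2 or T003 24 h replicate 1 or 2 (adjusted p = 0.131, 0.0773 and 0.0619, edgeR), nor PLCG2 without untreated replicate 1 (0.0521).

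Transcription factors of the B lineage and E proteins gave 5 of 21 tested genes higher and 1 lower with DFO, beside 3.43% and 3.27% of all genes. With T003 8 were higher and 1 lower, beside 7.1% and 5.44%. The list medians were 0.06 and 0.13, against -0.00229 and -0.00688 over all genes tested. ID2 went from 149 and 141 CPM in untreated cells, and 136 to 143 at 6 h, to 186 and 199.5 with DFO (log2 0.41, SE 0.036, edgeR adjusted p = 9.38e-05) and 205 and 202 with T003 (0.49, SE 0.036, edgeR adjusted p = 2.04e-05) at 24 h. Its relative ID3 rose by 0.60 (SE 0.093, edgeR adjusted p = 0.00314) and 0.64 (SE 0.093, edgeR adjusted p = 0.00129). IRF8, a factor of B and myeloid cells that NK cells also use, rose from 86.8 ± 5.74 CPM to 130 ± 2.52 with DFO and 126 ± 2.92 with T003 (log2 0.58 and 0.54, SE 0.040 each). POU2F2, which binds octamer sites, rose from 11.9 ± 0.635 to 16.9 ± 0.0598 CPM with DFO (log2 0.50, SE 0.070, edgeR adjusted p = 0.00162) and 16.2 ± 1.06 with T003 (0.44, SE 0.070, edgeR adjusted p = 0.00207), while its B cell coactivator POU2AF1 was at 0 throughout. MYB, singled out after its values were seen, rose by 0.60 (SE 0.088, edgeR adjusted p = 0.00219) and 0.47 (SE 0.088, edgeR adjusted p = 0.0053; with T003 0.0572 without untreated replicate 2 and 0.0573 without T003 24 h replicate 1). EBF1, which acts with PAX5 in early B cells, was at 0.413 ± 0.122 CPM in untreated cells and had log2 differences of -1.29 with DFO and -0.51 with T003 at 24 h (edgeR adjusted p = 0.1 and 0.503).

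Among genes for the assembly, secretion and reception of IgM, 5 of 18 rose and 2 fell with DFO, beside 3.43% and 3.27% of all genes. With T003 6 rose and 3 fell, beside 7.1% and 5.44%. PRDM1, the repressor that shuts off PAX5 in plasma cells, was at 63.7 and 57.0 CPM in untreated cells and 57.6 to 59.4 at 6 h. At 24 h it was at 77.7 and 76.5 with DFO (log2 0.35, SE 0.044, edgeR adjusted p = 0.000849) and 86.8 and 85.2 with T003 (0.51, SE 0.044, edgeR adjusted p = 4.93e-05). TENT5C, a poly(A) polymerase that stabilises immunoglobulin mRNA, rose by 0.28 (SE 0.031) and 0.48 (SE 0.031). FCMR, the Fc receptor that binds IgM, was singled out after its values were seen. It was at 14.9 and 12.7 CPM in untreated cells, 12.6 to 15.0 at 6 h, 20.8 and 21.4 with DFO and 23.1 and 21.6 with T003 at 24 h, a rise of 0.61 (SE 0.084, edgeR adjusted p = 0.00143) and 0.70 (SE 0.084, edgeR adjusted p = 0.000413). PIGR, the receptor that carries immunoglobulins bound by the joining chain, had at most 0.0810 CPM in any library, and FCAMR and CD5L were at 0. HSPA5, the chaperone that holds unassembled heavy chains, had log2 changes of -0.35 and -0.54 with DFO and T003 (SE 0.022 each). HSP90B1, a chaperone of the same compartment, had -0.13 (SE 0.028, edgeR adjusted p = 0.0222) and -0.25 (SE 0.028, edgeR adjusted p = 0.000264). The DFO call was lost without untreated replicate 1 or 2 or DFO 24 h replicate 2 (0.0735, 0.158 and 0.153).

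Of the genes that PAX5 activates in B cells, 7 of 10 were tested and 1 was called with each agent, IKZF3, with log2 changes of -0.16 (edgeR adjusted p = 0.0034) with DFO and -0.09 (0.036) with T003. IKZF3 is an Ikaros family factor used throughout lymphocytes, at 430 to 529 CPM in these libraries. Without untreated replicate 2 its adjusted p was 0.0557 and 0.236 (edgeR), and the T003 call was also lost without 4 other libraries and with the block (0.0554). Of the genes that PAX5 represses, 7 of 8 were tested, and 3 rose and 1 fell with each agent. The shares of all genes called higher and lower were 3.43% and 3.27% with DFO and 7.1% and 5.44% with T003. CD28, a costimulatory receptor, rose from 97.2 ± 2.09 to 119.7 ± 5.09 CPM with DFO (log2 0.30, SE 0.032, edgeR adjusted p = 0.000277) and 134 ± 1.75 with T003 (0.46, SE 0.032, edgeR adjusted p = 1.24e-05). PRDM1 is also in this list. The third that rose differed between the agents. With DFO it was XBP1, at 59.4 ± 5.03 CPM in untreated cells and 70.6 ± 2.84 at 24 h (63.8 ± 0.00772 with T003). With T003 it was NOTCH1, which rose by 0.30 (SE 0.052, edgeR adjusted p = 0.00354). GRAP2, an adaptor of T cell signalling, fell from 58.9 ± 2.66 to 44.6 ± 2.08 and 47.2 ± 0.262 CPM (log2 -0.40 and -0.32, SE 0.041 each).

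The list on V(D)J recombination and class switching had RAG2 at 0 and RAG1 at no more than 0.133 CPM in any library. Of 13 tested genes, RAG1 included and the rest acting in general DNA repair, 1 fell with DFO, and 1 rose and 2 fell with T003. Beside this stand 3.43% of all genes higher and 3.27% lower with DFO, and 7.1% and 5.44% with T003. DCLRE1C, the Artemis nuclease, fell by 0.26 (edgeR adjusted p = 0.00376) with T003. NHEJ1, an end-joining factor, fell with both (-0.21 and -0.19, edgeR adjusted p = 0.0327 and 0.0365) and TP53BP1 rose with T003 (0.14, 0.0225). NHEJ1 was lost without 7 libraries with DFO and 5 with T003 (up to 0.245 and 0.184), and TP53BP1 without either untreated library or T003 24 h replicate 2 (up to 0.158).

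**Figure D4:**
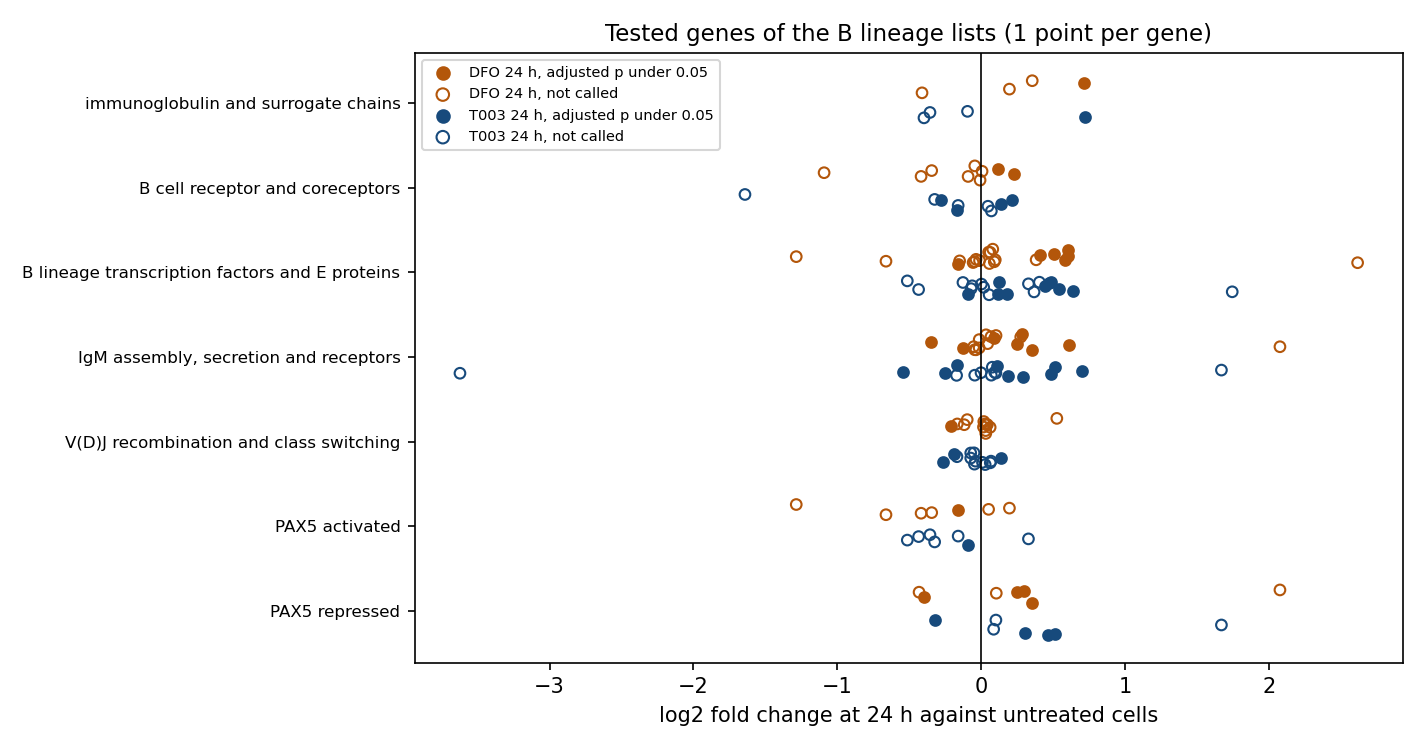
Log2 fold change at 24 h against untreated cells (horizontal axis) of the tested genes in 7 lists of B lineage genes, with 1 point per gene, filled where the adjusted p was under 0.05; orange is DFO and blue T003. Filled points lie between -0.54 and 0.72.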

How the data were processed

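Polyadenylated RNA of 10 NK-92 libraries was sequenced. Per the submitters' processing notes and design text, the authors trimmed reads with fastp 0.21.0, aligned them to hg38 with HISAT2 2.2.1 and counted them with StringTie 2.1.6 on RefSeq genes, and the deposited values are estimated counts per gene, written as whole numbers. How strand was handled was not stated, so overlapping and antisense genes cannot be told apart. Columns named NonTreat were taken as the 0 h samples.

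Genes passing filterByExpr (minimum count 10), 20125 in number, were fitted in 1 edgeR 4.0.16 quasi-likelihood model (R 4.3.3) over 5 groups with TMM scaling, and p-values were adjusted by Benjamini-Hochberg over all of them. The code was checked on simulated data. The members and lists were chosen with earlier results of these data known. Named were the members, up to 4 called genes per list with the smallest p, neighbours within 250 kb at 1 CPM or more, defining B cell genes and the 5 most alike genes per member. FCMR, MYB, EBF1, PIGR, IGHD, XBP1, IL2RB, KLRD1, EOMES, the microRNA loci and the motifs were singled out after values or sequences were seen. Alternatives were RLE scaling, no filter, a replicate block, compared groups only, DESeq2 1.42.0 and leaving out each library. Same-numbered libraries were not taken as pairs. Some listed genes are not reported here by name.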

Additional observations from a re-analysis of the deposited data

Results flagged for a closer look

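For IGHM and PAX5 the 6 h and 24 h libraries lay on opposite sides of the untreated ones with both agents. IGHM was below both untreated libraries at 6 h and above both at 24 h, and the log2 difference between the times, 24 h minus 6 h, was 0.97 with DFO and 1.08 with T003. PAX5 was above both at 6 h and below both at 24 h, with -3.35 with DFO and -2.59 with T003. Each of these positions alone was held by 19.5% to 26.9% of all genes tested, and the share of genes with both was not counted. Both agents were set against the same untreated libraries. The differences between the times were not tested, since the 24 h values chose the genes, and the 6 h changes themselves did not pass the adjusted threshold.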

How the results depend on the processing

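None of the 3 genes was called at 6 h or between agents under any alternative run that gave an adjusted p, the replicate block included. DESeq2 gave no adjusted p for PAX5 at 6 h with either agent, JCHAIN at 6 h with DFO, and PAX5 between agents at 24 h. The differences of the 3 genes changed sign without single libraries in 3 uncalled comparisons near 0: JCHAIN and PAX5 between agents at 6 h and JCHAIN from 6 h to 24 h of T003. Without 1 library at a time the 24 h log2 differences from untreated cells ranged from 0.81 to 0.91 (DFO) and 0.88 to 0.98 (T003) for IGHM, -3.06 to -1.79 and -2.42 to -1.15 for PAX5, both ends set by the 2 untreated libraries, and -0.26 to -0.037 for JCHAIN with T003. JCHAIN from 6 h to 24 h of T003 ranged from -0.18 to 0.046, the ends set by the T003 24 h libraries. List genes called at 24 h ranged from 2 to 5 lower with DFO, and from 13 to 21 higher and 5 to 9 lower with T003. DESeq2 called 1 list gene higher at 6 h with DFO and 2 with T003. Between agents at 24 h, checked after seeing the data, list genes called higher and lower (2 and 4) ranged from 0 to 2 and 0 to 4 without 1 library, and were 4 and 8 with DESeq2, 1 and 2 with compared groups only and 1 and 3 with the replicate block. The block ended 3 calls against untreated cells, IKZF3 with T003 (edgeR adjusted p = 0.0554), MIR4537 with DFO (0.0629) and MIR4538 with T003 (0.0648), and 2 between agents, CD28 and PLCG2 (0.0563 each). Fits of the compared groups only ended EBLN3P (0.0522), NHEJ1 (0.0972), PIK3AP1 (0.0687) and MIR4537 (0.091) with DFO, MELK (0.0837) and MIR4538 (0.0631) with T003, and CD28, IRF4 and PLCG2 between agents (0.105, 0.0746 and 0.102). Without the filter MIR4537 and MIR4538 were at 0.0511 and 0.0518. Without 1 untreated library the 6 h differences of PAX5 ranged from 0.29 to 1.55 (DFO) and 0.18 to 1.44 (T003), and those of IGHM from -0.17 to -0.065 and -0.20 to -0.097. Replicate differences of 2 groups correlated by -0.0521 to 0.0125. Over all genes edgeR called 5 and 6 at 6 h (DFO, T003), 1349 and 2524 at 24 h, and 0 and 270 between agents at 6 h and 24 h. DESeq2 called 434, 69, 1870, 2918, 6 and 878 in that order, fits of the compared groups only 4, 5, 851, 2271, 2 and 55, and the block 2, 1, 1185, 2294, 1 and 117. Without 1 library the ranges were 1 to 11, 1 to 13, 431 to 1383, 1084 to 2544, 0 to 4 and 14 to 229. PAX5, with 17 to 209 counts a library, is the least precise.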
